A study of Drosophila melanogaster with 8 samples.

Results

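The regions described here are the KDM5 peaks with the highest scores in prothoracic gland cells of Drosophila larvae. They were chosen by the deposited peak score, at 7.5 or more, on every chromosome arm. This gave 397 of 4931 peaks, or 8.05% of the list. Binding was mapped by Targeted DamID (TaDa), in which a Dam methylase fused to the protein of interest marks GATC sites close to where the protein sits. Every larva carried tub-Gal80[ts] and spok-Gal4, and the groups differed in the transgene, which was UAS-LT3-dam for Dam alone and UAS-LT3-dam-kdm5 for the Dam:KDM5 fusion. Each group had 4 samples of 100 pooled wandering larvae of the third instar, from eggs laid over 24 h, kept for 5 days at 18°C and then for 2 days at 29°C. The files hold 1 averaged profile of Dam:KDM5 against Dam alone and no value per sample, so no value below has a replicate error, and the files give no read number per sample. Because the score chose the regions and their width, position and genes come from the same profile, everything below is a description with no test.

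Some limits come with the model. Whole larvae were homogenised, and the restriction to the prothoracic gland rested on the spok-Gal4 driver. The larvae still had their own KDM5, which carried no Dam. A binding profile holds no expression level, so the labelled tissue could not be checked against expressed markers. Of 9 genes for ecdysone synthesis enzymes only shd lay under a peak of any score, and shd acts in other tissues, unlike the enzymes whose expression defines this gland.

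KDM5 is a histone demethylase whose substrate is H3K4me3, a mark of active promoters, and it also binds and regulates genes without this activity. The prothoracic gland makes the steroid ecdysone, whose pulses time the moults and the start of metamorphosis. In TaDa the methylated GATC fragments are cut out and sequenced, so a peak starts and ends at GATC sites and its resolution is set by the spacing of these sites.

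The narrowest of the regions show this structure, and 3 of them that hold no untranslated bases are printed whole, read in the direction of the gene from the RefSeq sequence of genome Release 6. Capitals mark the GATC sites, 4 in each, which bound 3 fragments, and each run ends with the whole last site. The Rab6 region (chr2L:12108415-12108668, minus strand, all coding exon) scored 7.75, and Rab6 encodes a small GTPase of the Golgi. The Srp54k region (chr3L:5153067-5153347, plus strand, all coding exon) scored 7.90, and Srp54k encodes a subunit of the signal recognition particle. The Rhp region (chrX:15789430-15789721, plus strand, all intron) scored 7.61, and Rhp encodes a protein related to Rhophilin.
Rab6: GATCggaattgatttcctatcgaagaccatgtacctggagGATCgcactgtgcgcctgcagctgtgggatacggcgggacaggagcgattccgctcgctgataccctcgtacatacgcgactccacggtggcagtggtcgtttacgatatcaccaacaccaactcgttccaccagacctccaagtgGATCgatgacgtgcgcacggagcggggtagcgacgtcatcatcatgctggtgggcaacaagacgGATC
Srp54k: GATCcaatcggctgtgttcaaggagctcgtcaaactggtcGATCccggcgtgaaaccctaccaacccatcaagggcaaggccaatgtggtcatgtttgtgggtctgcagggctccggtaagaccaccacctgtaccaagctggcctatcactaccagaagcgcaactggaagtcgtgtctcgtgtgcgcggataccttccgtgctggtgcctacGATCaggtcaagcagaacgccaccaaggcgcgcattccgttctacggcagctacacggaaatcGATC
Rhp: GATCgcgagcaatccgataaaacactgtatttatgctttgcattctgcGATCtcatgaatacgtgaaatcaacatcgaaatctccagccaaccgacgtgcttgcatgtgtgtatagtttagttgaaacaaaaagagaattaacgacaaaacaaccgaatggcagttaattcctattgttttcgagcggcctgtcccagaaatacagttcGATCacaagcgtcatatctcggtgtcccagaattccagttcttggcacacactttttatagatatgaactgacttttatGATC

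Some genes beside these regions carried a promoter element called DRE (TATCGATA), which the factor Dref binds at genes used in most cells. Among the arms read for sequence, the 5 highest scoring regions with a DRE in the 100 bases before a protein-coding start, where those bases held no exon, are shown by the 100 bases, each ending at the base before the start, with the DRE in capitals. They are Tctp (score 10.17, chr3R:11210147-11210246, plus strand), Sec63 (9.16, chr3L:7360461-7360560, plus), DnaJ-1 (9.15, chr3L:5752190-5752289, minus), Stt3B (9.07, chr3R:25069638-25069737, minus) and CG8032 (8.79, chr3R:8664015-8664114, plus). The bases lay between genes, except at CG8032, where they lay in an intron.
Tctp: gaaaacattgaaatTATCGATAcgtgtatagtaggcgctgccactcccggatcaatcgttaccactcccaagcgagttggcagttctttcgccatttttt
Sec63: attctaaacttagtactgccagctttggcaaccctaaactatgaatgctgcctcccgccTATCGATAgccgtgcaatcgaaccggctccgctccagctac
DnaJ-1: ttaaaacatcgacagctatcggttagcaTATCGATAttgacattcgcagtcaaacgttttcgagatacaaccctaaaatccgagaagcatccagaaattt
Stt3B: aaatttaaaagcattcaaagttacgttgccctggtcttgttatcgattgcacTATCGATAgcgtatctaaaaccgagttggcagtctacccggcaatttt
CG8032: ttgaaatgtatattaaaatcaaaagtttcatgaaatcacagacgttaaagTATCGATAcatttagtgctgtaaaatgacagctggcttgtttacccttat

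At Stt3B and CG8032 these 100 bases lay inside the peak. At the other 3 genes the peak lay downstream and left the start uncovered. Its centre was 468 bp into Tctp, 517 bp into Sec63 and 635 bp into DnaJ-1. Tctp encodes a growth regulator, Sec63 and Stt3B encode parts of the machinery that brings proteins into the endoplasmic reticulum and attaches sugars to them, and DnaJ-1 encodes an Hsp40 chaperone.

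The 397 scores ran from 7.5 to 10.65 with a median of 7.97, against a median of 4.35 in the 4534 other peaks. The score is the authors' value of a peak relative to Dam alone, and its log base is not stated. A total of 204 regions scored from 7.5 to under 8, 106 from 8 to under 8.5, 55 from 8.5 to under 9, and 32 scored 9 or more. The highest value was at Fit1. The 5 lowest were at myo on chromosome 4 (7.51), at Tsp42Ea and CG30159, at Daao1 and CG7220, at Sox14 and at pst (7.5 each). Just outside were the peaks at CG9536 and Sec61alpha, at CG13585 and at Tbc1d8-9 (7.49 each), and at vri and at Cpr73D and Ogdh (7.48 each). The scores went on from 7.5 to 7.49 without a gap.

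The regions were shorter than the other peaks as a whole and spanned fewer GATC fragments. Their median width was 1144 bp (238 to 5230 bp), against 1491 bp in the other peaks, and their median number of fragments was 4 against 5. The 822 peaks from 6 to under 7.5 were shorter still, with medians of 1071 bp and 3 fragments. A total of 186 of the 397, or 46.9%, spanned 3 fragments, the fewest in the list. Peaks of 3 fragments entered the list only with high scores: the lowest was 5.73, and the median was 7.03. The lowest score was 3.94 at 4 fragments, 2.73 at 5, 1.72 at 6 and 1.42 at 7. Of the 649 peaks of 3 fragments 28.7% reached 7.5, against 7.99% of those of 4 fragments and 3.18% of those of 6.

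**Figure D1:**
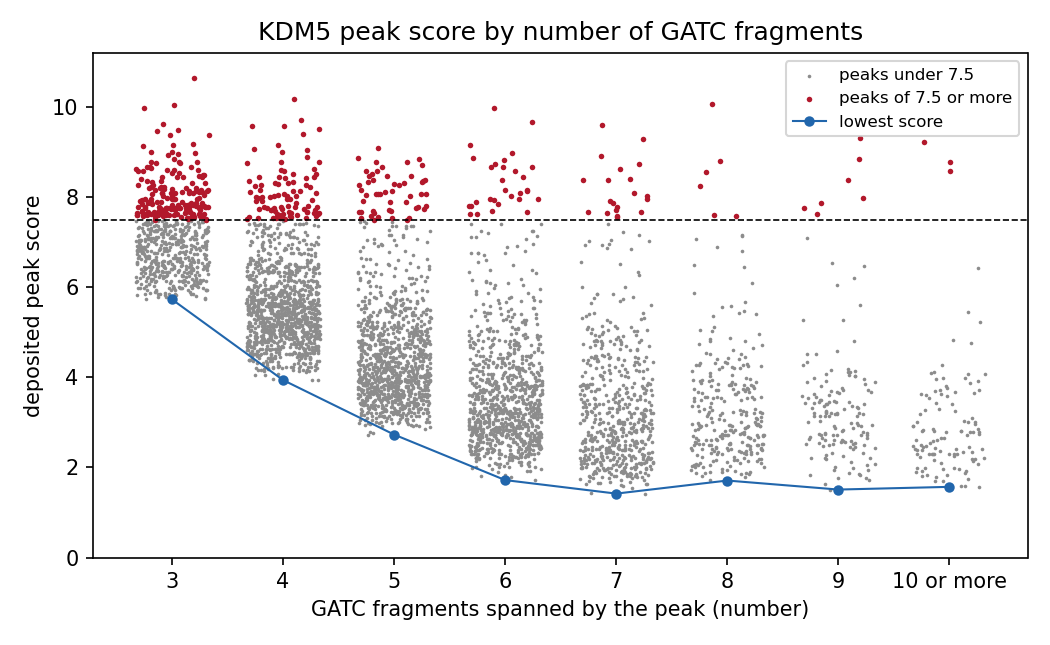
Deposited peak score (y axis) against the number of GATC fragments a peak spans (x axis, points spread sideways for view) for all 4931 peaks, with the 397 peaks of 7.5 or more in red, the lowest score per fragment number in blue and the threshold as a dashed line. The lowest score goes from 5.73 at 3 fragments to 1.42 at 7, and red points are most frequent at 3 fragments.

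At the same number of fragments the widths were alike. Among peaks of 3 fragments the median width was 878 bp in the 186 high-scoring regions and 882 bp in the other 463. Among peaks of 4 fragments it was 1112 bp in 93 regions and 1111 bp in the other 1071. Across all peaks the Spearman correlation of score with fragment number was -0.73, and within the 397 regions it was 0.14. These values describe peaks of 1 profile, which share its libraries. The false discovery rate (FDR) was weakest in the same peaks, and 18 of the 19 regions with an FDR above 0.0001 spanned 3 fragments. The 3 widest regions lay at Vha16-1, a proton pump subunit gene (5230 bp, score 7.62), at CG33635 and spen (4343 bp, 7.55) and at lili (4304 bp, 8.58). The 3 narrowest lay at CG42557 and CG42558 (238 bp, 7.51), Rab6 (251 bp, 7.75) and CG9044 (271 bp, 8.51).

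Nearly all of the regions lay close to a transcription start site (TSS). A total of 372, or 93.7% (exact 95% interval 90.8 to 95.9%, counting error only), came within 1 kb of an annotated TSS, against 82.7% of the other peaks. The share was 76.1% of peaks under 3, 81.8% of those from 3 to 4.5, 85.7% from 4.5 to 6, and 86.9% from 6 to 7.5. All 32 regions of 9 or more did so. The higher share was also present at equal fragment numbers: 93.0% against 85.3% at 3 fragments, 94.6% against 85.7% at 4, and 94.2% against 82.4% at 5. A TSS itself was covered by 184 regions (46.3%) and by 45.0% of the other peaks. At equal fragment numbers this share was also higher in the regions, at 39.2% against 35.9% for 3 fragments, 45.2% against 40.6% for 4, 57.7% against 44.8% for 5, and 59.1% against 49.6% for 6 or more.

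**Figure D2:**
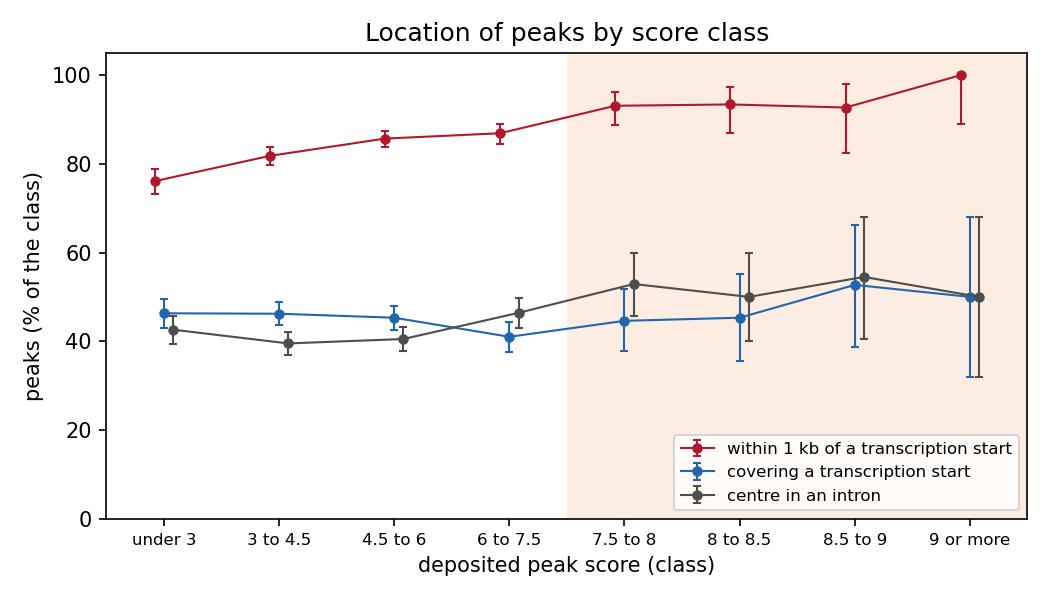
Share of peaks (y axis, % of the class) within 1 kb of a transcription start, covering one, or centred in an intron, by class of deposited score (x axis), with exact 95% intervals that cover counting error only and the classes of 7.5 or more shaded. The share within 1 kb goes from 76.1% under 3 to 93.1% at 7.5 to 8, while the share covering a start lies between 41.0% and 52.7% in every class.

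The regions sat mostly just inside the gene. The median distance from their centre to the nearest TSS was 526 bp, against 751 bp in the other peaks, and 319 centres (80.4%) lay within 1 kb, against 61.7%. Of these 319 centres 249 were downstream of the TSS, or 78.1%, against 73.4% of such centres in the other peaks. The fullest stretch was 400 to 600 bp downstream, with 64 centres (16.1%). No centre lay farther than 5266 bp from a TSS, whereas the other peaks reached 38960 bp. In the peaks from 6 to under 7.5 the median distance was 591.5 bp, and 73.8% of centres lay within 1 kb. At 3 fragments the median distance was 493 bp in the regions and 548 bp in the other peaks. It was 521 bp against 655 bp at 4 fragments, 572.5 bp against 758 bp at 5, and 651.5 bp against 920 bp at 6 or more.

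**Figure D3:**
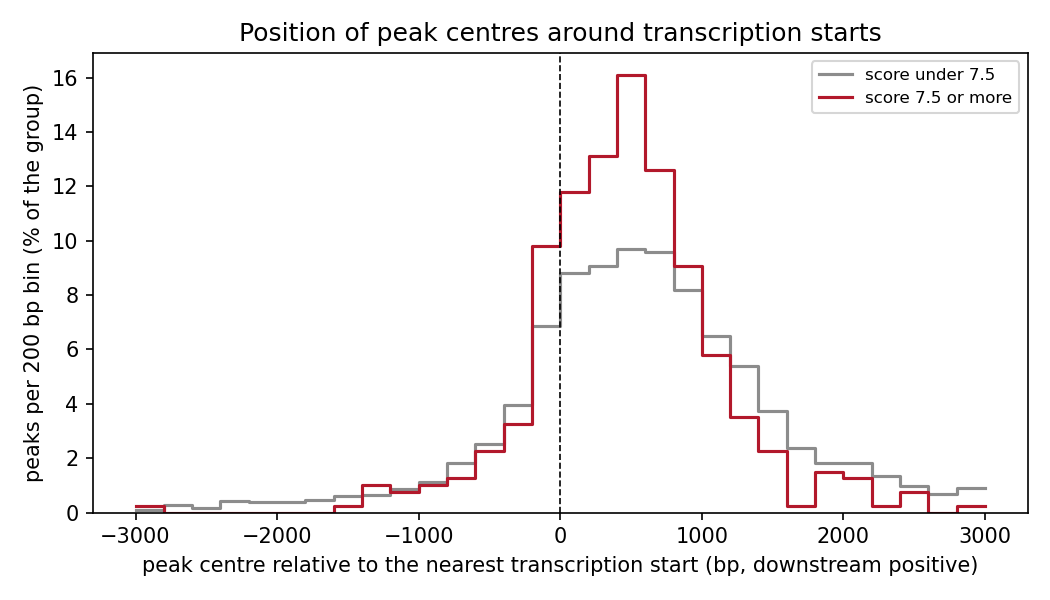
Position of peak centres relative to the nearest transcription start (x axis, bp, downstream positive) in bins of 200 bp, as % of the 397 peaks of 7.5 or more (red) and of the 4534 other peaks (grey). Both curves are highest downstream of the start, and the red curve reaches 16.1% at 400 to 600 bp against 9.70% in grey.

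Introns held the largest share of the centres. A total of 207 centres lay in introns (52.1%), against 41.7% of the other peaks, while introns make up 42.7% of the arms. Coding exons held 81 (20.4% against 32.1%), 5′ untranslated exons 65 (16.4% against 10.7%), and 15 lay between genes (3.78% against 7.43%). Of 184 centres in an intron of a gene's main transcript, 129 lay in the first (70.1%), against 60.1% in the other peaks and 66.9% in those from 6 to under 7.5. At 6 or more fragments neither share was higher in the regions, with 40.9% against 41.1% in introns and 57.1% against 57.1% of these in the first. The share in introns was 52.2% against 44.3% at 3 fragments, 52.7% against 43% at 4 and 65.4% against 40.1% at 5. First introns account for 32.2% of these intron bases. Of the 78 regions centred more than 1 kb from a TSS, 61 lay in introns, 10 in coding exons and none between genes. The 9 farthest, over 2500 bp away, included those in the first introns of kdn, the citrate synthase gene (3785 bp), blot (4466 bp) and cwo, a clock repressor gene (3906 bp). The farthest centre, 5266 bp from a TSS, lay in the second intron of CrebA, which encodes an activator of secretory pathway genes.

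The 397 regions overlapped 509 of the 13945 protein-coding genes of the arms, or 3.65%, and 9.42% of the 5402 such genes under any peak (which are 38.7% of all). They also overlapped 35 non-coding RNA genes, 18 snoRNA genes and 1 tRNA gene. The shares of all such genes are not given here, so these counts do not say whether they are many or few. Of the regions 268 (67.5%) held 1 protein-coding gene, 109 held 2, 15 held 3, and the region over Pfas, slmo, CG34179 and IPIP held 4. Pfas encodes an enzyme of purine synthesis. The same profile cannot say which gene of such a region the protein contacts. Exactly 1 protein-coding gene lay under 60.3% of the other peaks and 63.4% of those from 6 to under 7.5. At equal fragment numbers the share was 71% in the regions against 69.8% for 3 fragments and 67.7% against 64.5% for 4. It was 61.5% against 59.5% for 5 and 62.1% against 56.2% for 6 or more. A total of 62 regions (15.6%, against 12.5% of the other peaks) covered the starts of a divergent pair no more than 1 kb apart. The share was 15.2% in peaks from 6 to under 7.5 and 9.38% in the regions of 9 or more. In 4 regions only non-coding genes lay under the peak, and they included lncRNA:CR45345 (9.29), lncRNA:CR43314 (9.04) and lncRNA:CR43626, host of mir-282 (8.97). No protein-coding gene lay under 1.01% of the regions, 1.22% of peaks from 6 to under 7.5 and 2.27% of the other peaks.

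The genes under these regions were long and often held further peaks. A longer gene, or one with more peaks, had more chances to overlap a region. The contrasts that follow are thus partly set by how the genes were chosen. Their median length was 3888 bp, against 2911 bp for genes under lower peaks only and 1766 bp for genes under no peak. Of the 509 genes 10.8% had 4 or more annotated starts, against 5.54% and 1.33%. A total of 199 genes (39.1%) held more than 1 peak, against 20% of the 4893 genes under lower peaks only. In 136 of the 199 (68.3%) the highest peak was the one nearest a start of that gene, a share that was not counted for genes under lower peaks only. The highest peak of these genes had a median score of 7.99 and the next a median of 5.88.

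A group of 22 genes held more than 1 of the regions, 41 regions in all. Of these, 4 genes held 3 each. spin, which encodes a lysosomal transporter, had peaks of 9.63, 7.90, 7.69 and 2.78, the first 3 of them 445 and 446 bp apart. br encodes the Broad transcription factors of the ecdysone response and had peaks of 8.88, 8.10, 7.60, 5.58 and 5.5, all shared with the overlapping gene Mur2B. CG46385 had 8.17, 7.85 and 7.73 besides 6.88, 5.92 and 5.70. IP3K1, an inositol trisphosphate kinase gene, had 9.97 and 7.51 and no lower peak. NTPase had 9.23 and 8.97, CG12863 had 9.40 and 8.60, and Pgant5, which adds sugars to secreted proteins, had 8.95 and 7.67. Tab2 had 8.91, 7.62 and 7.41, with the highest 3285 bp from its start. fbl, a pantothenate kinase gene, had 8.81, 7.61 and 4.48. gem and the overlapping CG46319 had 8.67, 8.49 and 6.49.

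Secretory, growth and stress genes were among the rest of the 22. CrebA had peaks of 8.57 and 7.68 and 3 lower ones. Xrp1, a stress response factor gene, had 8.29 and 8.13 and 3 lower ones. atl encodes the GTPase atlastin, which fuses endoplasmic reticulum membranes, and had 8.25, 8.16, 7.11 and 6.77. siz had 8.09 and 7.91, and Rho1, a GTPase gene of actin control, had 7.95 and 7.64. Oda, the antizyme gene of polyamine control, had 7.75 and 7.64. jvl had 7.76 and 7.69, Rab6 had 7.75 and 7.62, and the twin records CG42557 and CG42558 had 7.88 and 7.51.

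**Figure D4:**
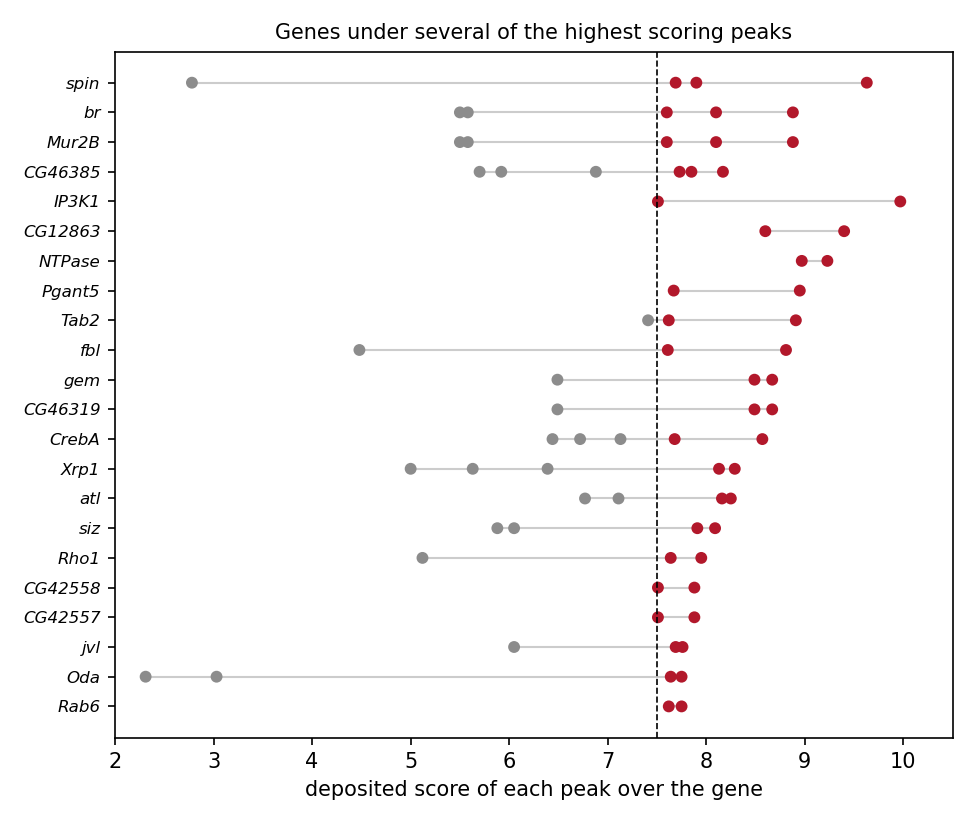
Deposited scores (x axis) of every peak over the 22 protein-coding genes that hold more than 1 peak of 7.5 or more (y axis, 1 gene per line), with peaks of 7.5 or more in red, lower peaks in grey and the threshold as a dashed line. spin, br, Mur2B and CG46385 hold 3 red points each, and the scores of br and Mur2B are the same peaks.

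The 20 highest regions were led by Fit1, the kindlin gene of integrin adhesions (10.65), whose peak was centred 516 bp into the gene in a 5′ untranslated exon. Tctp followed at 10.17. ETHR, the receptor gene for ecdysis triggering hormone, had 10.06 with its centre in the first intron. Papss makes the sulfate donor of sulfation reactions and had 10.04. sqh encodes a light chain of non-muscle myosin and had 9.99 in a peak of 276 bp. Karybeta3, an importin gene, had 9.71, and the region over Asciz and CG32280 had 9.67. The region over CG31496 and nxf4, a gene of the nuclear export factor family, had 9.61.

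Membrane traffic and energy genes stood among the next. Sar1, the GTPase that starts COPII coats, had 9.58. CG46491 had 9.57, CG12054 had 9.51 and CG11168 had 9.49. Ogdh, a citric acid cycle enzyme gene, shared a region of 9.46 with the cuticle protein gene Cpr73D. Its centre was 456 bp into Ogdh and 1469 bp from the start of Cpr73D. Sec61beta, a subunit gene of the protein channel of the endoplasmic reticulum, shared a region of 9.40 with CG12863. Adk2, an adenylate kinase gene, had 9.39 and bbg had 9.37. The region over CG9485 and Panx, a piRNA silencing factor gene, had 9.31. The rank 20 region, lncRNA:CR45345, held no protein-coding gene.

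The genes were also counted in 34 lists of pathways and complexes, which were drawn up with results of these data known. Together the lists hold 1222 genes, of which 98 lay under the regions. In 50 of these 98 no other protein-coding gene shared the peak, and in 47 the peak covered a start of the listed gene. Some shared peaks lay far from the listed gene's own start, so the count may belong to the neighbour. Such distances were 9002 bp for Mi-2 (shared with Su(Tpl)) and 3267 bp for ThrRS (with Rab6). They were 3233 bp for sav (with Ctns), 2350 bp for br (with Mur2B) and 2155 bp for yip2 (with CG5885). The counts below are out of whole lists, to be set beside 3.65% of all protein-coding genes, and no list was tested. The 9.42% goes only with the genes of a list that lay under any peak. Among such genes the share under the regions was 38.1% for coat proteins and adaptors, 33.3% for V-ATPase subunits and 13.6% for cytoplasmic ribosomal proteins. For respiratory complexes it was 10.2%, for proteasome subunits 7.69% and for mitochondrial ribosomal proteins 6.82%.

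Among membrane traffic genes, 8 of 23 coat proteins and adaptors lay under the regions (34.8%), and 21 of the 23 lay under a peak of some score. Sar1 (9.58), AP-2sigma (8.78), Arf1 (8.57) and Sec23 (8.41) had the highest scores, while AP-1-2beta had 2.65. AP-2sigma shared its peak with Rab1, whose start was the closer, and Sec23 shared its peak with MTA1-like. Of 28 Rab GTPases, which direct vesicles to their membranes, 6 were under the regions, with Rab1 at 8.78, Rab35 at 8.17, Rab14 at 7.96 and Rab6 at 7.75, and Rab10 had 5.21. Of 33 V-ATPase subunits, which acidify vesicles, 5 were, with VhaAC45 at 8.84, Vha68-2 at 8.59, Vha55 at 8.08 and Vha100-2 at 7.68, and Vha100-1 had 3.02.

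Among growth signalling genes, 5 of 19 insulin and TOR genes lay under the regions (26.3%). foxo, the transcription factor gene restrained by insulin, had 8.48, its target gene Thor had 8.26, and the kinase gene S6k had 8.02. rictor had 7.61 and Akt 3.15. In a list of the Myc network together with the growth regulator gene Tctp it was 2 of 6, Tctp and Myc (8.00), with bigmax at 6.86. In the Hippo pathway, which limits tissue growth, it was 3 of 15, hpo (7.89), kibra (7.74) and sav (7.58), and app lay under no peak. In activin and BMP signalling it was 3 of 15, the ligand genes daw (8.11) and myo (7.51) and the repressor gene brk (7.82), and Actbeta lay under no peak. Of 22 genes from receptor tyrosine kinases to ERK 2 were, Ras85D (8.60) and Egfr (8.43), and Alk had 3.18. Of 25 Notch and Wingless genes 2 were, pan (8.62) and aph-1 (7.98), and Apc lay under no peak.

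Among ecdysone genes, EcR (9.01), br (8.88) and ERR (8.32) were 3 of 25 genes for the ecdysone response and nuclear receptors, and dsf lay under no peak. EcR encodes the ecdysone receptor. ERR shared its peak with Atg18a. Of 25 autophagy genes 1 lay under the regions, Atg18a (4%, close to the 3.65% of all protein-coding genes), and Atg1 had 5.28. shd (7.63) converts ecdysone to its active form in other tissues, and Cyp6t3 and the other 7 synthesis enzyme genes lay under no peak.

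Among metabolic genes, 5 of 23 fatty acid and storage lipid genes lay under the regions, with yip2 at 8.83, whd at 8.62, ACC at 8.52 and ATPCL at 7.97, and Acat1 lay under no peak. ACC and ATPCL encode enzymes of fatty acid synthesis and whd encodes the carnitine palmitoyltransferase of fatty acid breakdown. Of 22 citric acid cycle and pyruvate dehydrogenase genes 4 were, Ogdh (9.46), ScsbetaA (8.36), muc (8.07) and kdn (7.91), and CG5214 had 7.40. Of 19 genes of mitochondrial shape and biogenesis 2 were, ERR and srl (8.05), the PGC-1 gene, and clu lay under no peak. Of 89 respiratory complex genes 5 were, including ND-B18 (8.45), UQCR-Q (8.16), COX7C and COX7CL (7.64, in 1 shared peak), and ATPsynB lay under no peak. The ND-B18 peak was shared with opm and centred 1228 bp from the ND-B18 start. The UQCR-Q peak was shared with CG34250 and centred 1177 bp from the UQCR-Q start. The COX7C peak also lay over oys, and only ATPsynC (7.54) was alone under its peak. Of 12 glycolysis genes 1 was, Gapdh1 (8.26), and Ald1 had 7.12.

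Among translation and protein turnover genes, 9 of 86 cytoplasmic ribosomal proteins lay under the regions, with RpL37A at 8.95, RpS20 at 8.78, RpS15Aa at 8.48 and RpS28a at 7.96, and RpL10 lay under no peak. Of 73 mitochondrial ribosomal proteins 3 were (4.11%), mRpL35 (8.32), mRpL42 (8.27) and mRpS11 (7.74), and mRpL1 had 3.5. Of 55 translation factors 5 were, with eEF1alpha1 at 8.66, Thor at 8.26, eIF2Balpha at 7.88 and eIF4A at 7.80, and eEF1alpha2 had 3.44. Of 33 aminoacyl-tRNA synthetases 2 were, AlaRS (8.30) and ThrRS (7.62), and AlaRS-m had 5.29. Of 32 proteasome subunits 2 were, Rpn1 (8.12) and Prosbeta3 (7.54), and Prosalpha1 lay under no peak. Of 8 chaperonin subunits 1 was, CCT2 (7.58), and CCT1 had 3.44.

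Among cytoskeletal and nuclear genes, 6 of 29 actin, myosin and tubulin genes lay under the regions, with sqh at 9.99, zip, the myosin heavy chain, at 8.39, and Arp3 and Rho1 at 7.95, while Act42A had 6.99. Of 15 integrin adhesion genes 2 were, Fit1 and the integrin gene if (7.57), and Fak had 6.05. Of 32 nuclear transport genes 4 were, Karybeta3 (9.71), nxf4 (9.61), Nup44A (8.52) and Nup98-96 (8.02), and emb had 6.60. Of 23 chromatin remodellers 4 were, Iswi (8.35), dom (8.08), Mi-2 and Bicra (7.72 each), and Acf had 3.98. Of 16 genes of H3K4 methylation, KDM5 and Sin3 1 was (6.25%), the corepressor gene Sin3A (7.58), and ash1 had 2.72. Of 16 promoter and insulator factors 1 was (6.25%), the GAGA factor gene Trl (7.74), and BEAF-32 had 3.43.

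In the lists that follow few or no genes lay under the regions. It was 0 of 17 Polycomb genes, 0 of 25 cell cycle genes and 0 of 8 Hox genes, although 11, 15 and 3 of them lay under lower peaks. In lists of this size a count of 0 is close to the background shares of 3.65% and 9.42%, and it is no result about these lists. Asx had 7.22 and abd-A had 4.41, while Cdk1 lay under no peak. Of 120 cuticle protein genes 1 was, Cpr73D, and Ccp84Aa lay under no peak. Of 230 odorant and gustatory receptors and binding proteins 1 was, Obp99c (7.85, centred 345 bp into the gene and with no other protein-coding gene), and Gr10a lay under no peak.

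**Figure D5:**
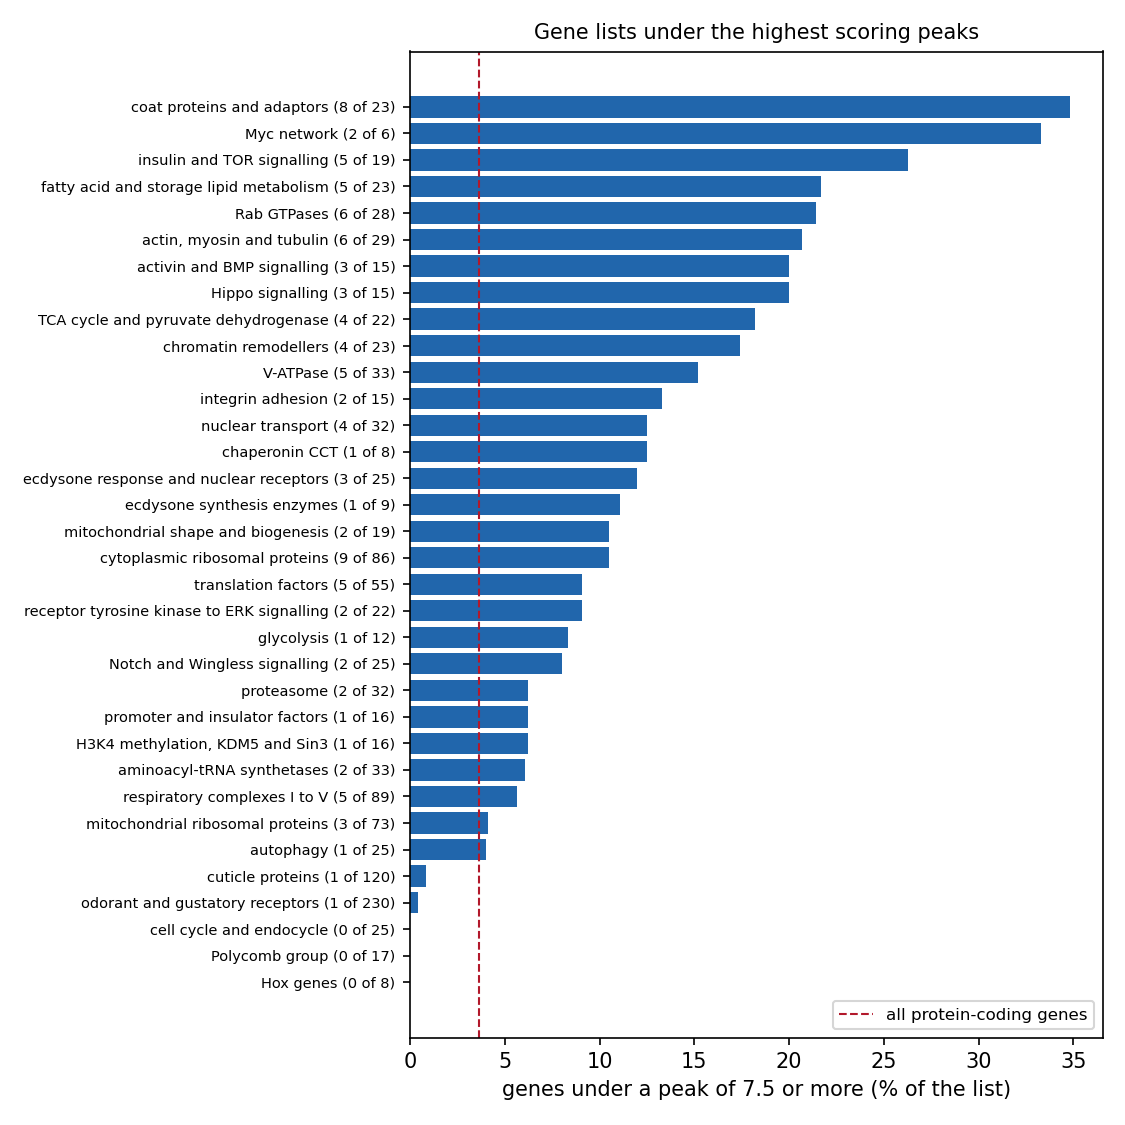
Share of each of the 34 gene lists that lay under a peak of 7.5 or more (x axis, % of the list, counts in the labels), with the 3.65% of all protein-coding genes as a dashed line. Coat proteins and adaptors have the longest bar (34.8%).

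The sequence around the centres was searched for 8 short motifs on both strands, in windows of 500 bp. DRE (TATCGATA) was in 12 windows, or 3.02% (exact 95% interval 1.57 to 5.22%), against 2.21% of the other peaks and 9.88% of windows of the same length around all protein-coding gene starts. At gene starts beside the regions the shares were higher. DRE was in 18.9% of the 519 protein-coding starts within 1 kb of a region, in 15.5% of the 4724 starts beside lower peaks only and in 6.31% of the 8702 starts with no peak. The Motif 1 core (GGTCACAC), another element of housekeeping promoters, was in 15.8%, 13.8% and 5.14% of these starts, and in 2.27% of the windows at the centres of the regions. The 12 windows with DRE included those over Stt3B and CG11839 (9.07), p and CG8032 (8.79), and CG15814 and Spt7 (8.77).

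Other motifs differed little between the regions and the other peaks. The E-box (CACGTG) was in 6.80% against 6.82%, the GAGA motif (GAGAGAG) in 8.31% against 6.77%, the TATA box (TATAAA) in 43.3% against 41.0%, and the nuclear receptor core (AGGTCA, which can overlap the Motif 1 core) in 16.6% against 15.2%. The Ets motif (CCGGAAGT) was in 0 of 397 windows and in 0.772% of the other peaks. A rough limit for a count of 0, taken as 3 windows of 397, is 0.756%. It is not an exact interval and is too close to 0.772% to tell the groups apart. At protein-coding starts the Ets motif was in 0.963% of those beside the regions, 0.72% beside lower peaks only and 0.911% of all.

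A CA repeat of 8 letters (CACACACA) was in 59 windows, or 14.9%, against 9.42% of the other peaks, 12.3% of those from 6 to under 7.5 and 8.21% of gene starts. At 3 fragments it was 14% against 12.7%, and at 4 fragments 15.1% against 10.6%. At 5 fragments it was 15.4% against 9.78%, and at 6 or more 16.7% against 7.8%. Among centres outside introns it was 15.3% against 7.60%, and among centres in introns 14.5% against 12%. The runs were 8 to 26 bases long with a median of 10. The 3 longest of those that lie free of untranslated bases and were read here are shown on the plus strand with 25 bases to either side and the run in capitals. They lay at Moe, a gene for a protein that links actin to the membrane (score 8.32, chrX:8891433-8891498), at Syp (7.70, chr3R:20782130-20782194) and at MTA1-like and Sec23 (8.41, chr3R:5648249-5648312), with the printed bases all in introns.
Moe: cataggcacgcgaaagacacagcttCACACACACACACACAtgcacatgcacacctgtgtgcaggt
Syp: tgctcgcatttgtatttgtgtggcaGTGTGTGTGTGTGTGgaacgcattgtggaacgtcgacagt
MTA1-like: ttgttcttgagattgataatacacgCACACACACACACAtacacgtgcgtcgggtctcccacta

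A motif match is a string of letters and not a bound site. The base composition of the regions gave no contrast, with a median GC content of 43.5% against 44.0%, and neither did the density of GATC sites, at 3.55 fragments per kb in both groups.

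The share of peaks that scored 7.5 or more was lowest on the X. The X chromosome held 40 (10.1%; exact 95% interval 7.30 to 13.5%), which is 5.26% of its 761 peaks and 1.70 per Mb. The shares of peaks that were regions were 7.93% on 2L, 9.41% on 2R, 8.85% on 3L and 8.05% on 3R, at 3.02 to 3.84 per Mb. Chromosome 4 held 2 of its 19 peaks, pan and myo. Among peaks of 3 fragments the share on X was 12.9% of regions and 13.4% of other peaks, and among peaks of 6 or more fragments it was 3.03% and 17.8%. The X regions of 5 or more fragments numbered 5 of 118. Highest on X were sqh (9.99), the region over Mur2B and br (8.88) and Gmap (8.84), a Golgi tether gene.

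Peaks of any score lay close to the regions, at a median gap of 1964 bp against 2136 bp for the other peaks, and 33.8% against 29.4% had one within 1 kb. This was not particular to the regions. Peaks from 6 to under 7.5 had a median gap of 1819.5 bp, and 32.8% had one within 1 kb. The nearest other region lay farther off, as it must in a set of 397 among 4931 peaks. The median gap to the nearest other region was 53.0 kb, and 93 (23.4%) had another within 10 kb. No equally sparse set of peaks was counted, so these values do not say whether the regions were spread out or clustered. Of the 49 neighbouring pairs under 10 kb apart, 19 lay over the same gene and 37 had no lower peak between them. The closest were the pairs over Oda (22 bp apart, 7.64 and 7.75) and over atl (51 bp, 8.25 and 8.16). The fullest stretch of 100 kb held 6 regions, those of Rho1, spin and Lipt1. The nearest peak of any score beside a region had a median score of 5.53, against 4.61 beside the other peaks. Beside peaks from 6 to under 7.5 this median was 5.095.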

How the data were processed

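The authors aligned reads to dm6, used damidseq_pipeline for the ratio of Dam:KDM5 to Dam alone, averaged 4 replicate profiles, and ran find_peaks (fdr 0.01, min_quant 0.9). Tool versions: not given in the sources used here. Scores as the authors deposited them, the FDR and the gene sheets were used as they stand. How the score summarises the bases of a peak is not stated.

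Peaks with a score of 7.5 or more were taken and placed on the Ensembl release 115 annotation and the RefSeq sequence of Release 6. All 4931 starts and ends lay 1 base after the first base of a GATC, so fragments were counted between sites. Genes were counted at an overlap of 1 bp or more. The deposited gene sheet ties 504 protein-coding genes to these peaks, 503 of them among the 509. Members and gene lists were chosen with earlier results of these data known, and symbols in the lists were updated afterwards; 2 names were not matched. Named genes are those of the 20 highest peaks, up to 4 of each list and the first other of the list by alphabet, genes with several regions, and the extremes of score, width and gene number. Genes beside printed sequences, motif matches, far centres, non-coding regions and the X were named after their values were seen. Python 3.11.15, numpy 2.4.6, pandas 2.3.3 and scipy 1.17.1 were used. Score thresholds of 7 and 8 and other windows, overlaps and gaps were tried. No column per sample was used, and exact intervals cover counting error only.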

Additional observations from a re-analysis of the deposited data

How the results depend on the processing

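Of 30 alternatives to 9 results, 15 stayed within the interval of the main value (for counts, within 1.5 times) and 15 moved. A score threshold of 7 gave 651 peaks over 798 protein-coding genes and a share of 34.4% with another such peak within 10 kb. A threshold of 8 gave 193 peaks, 256 genes, 16.1% with such a neighbour and 7.25% on X. Width, distance to the TSS, the share near a TSS, the share over 1 gene and the share with DRE stayed within their intervals at both thresholds. The share near a TSS was 85.6% with a window of 500 bp, 97.7% with 2 kb and 80.4% for peak centres, against 71.2%, 90.9% and 61.7% of the other peaks. With an overlap of 200 bp or more, 73.6% held 1 protein-coding gene, against 65.5% of the other peaks. DRE was in 5.79% of windows of 1 kb, against 4.74% in the other peaks. In whole peaks it was 7.30% against 7.41%, so the order turned. Whole peaks are not a like comparison, because the other peaks were longer (median 1491 bp against 1144 bp) and so held more bases to search. Neighbours within 5 kb were found for 16.9% and within 20 kb for 32.7%. These settings change what is counted. Leaving out a replicate was not possible, because the profile was averaged before peaks were called. No paired analysis was possible because the files hold no value per sample. Peaks of few fragments entered the list only at high scores, which limits every comparison of the regions with lower peaks.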

Other observations

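Lists of secretory pathway genes were drawn up after the names under the regions had been read, and the counts below are therefore a description only. Of 43 genes for entry into the endoplasmic reticulum, folding and quality control, 18 lay under a peak of 7.5 or more (41.9%), and 36 lay under a peak of some score. Protein entry was represented by Sec61beta (9.40), Sec63 (9.16), Srp54k (7.90) and Srp68 (7.67). The sugar transfer genes Stt3B and Dad1 had 9.07 and 8.35. The calcium pump gene SERCA had 9.10. The chaperone genes Hsc70-3, Gp93, Calr and Grp170 had 8.39, 8.10, 7.80 and 7.60. The stress sensor kinase gene PEK had 7.98, and Herp and Edem2, which act in the removal of misfolded proteins, had 8.74 and 8.13. Just under the threshold lay Sec61alpha (7.49), Sec61gamma (7.37), Pdi (7.26) and Xbp1 (7.21), whereas Cnx99A had 3.56 and Stt3A, Atf6 and Der-2 lay under no peak.

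Of 35 genes for Golgi structure, tethering and glycosylation, 15 lay under such a peak (42.9%), and 30 lay under a peak of some score. They included Pgant5 (8.95), Gmap (8.84), the stacking protein gene Grasp65 (8.72), the cargo receptor genes bai (8.51), ergic53 (7.89) and Surf4 (7.61), and the sugar trimming genes alpha-Man-Ib (8.22) and alpha-Man-Ia (7.55). GM130 had 3.28, and Mgat1 lay under no peak. Of 23 cytosolic and mitochondrial Hsp chaperone genes 3 did, DnaJ-1 (9.15), Hsc70-4 (9.0) and Hsp110 (8.45), while Hsp83 had 5.24 and the listed Hsp70 genes lay under no peak.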
